A study of Mus musculus with 6 samples.

Results

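The genes for proteins of the cytosolic ribosome were examined in mouse embryonic stem cells (ESCs) grown in BRD0705/PD03 and in 2i. The group was defined by gene symbol: every symbol of the form Rpl or Rps followed by a number, with an optional a, x, l or y and a further number, plus Rplp0, Rplp1, Rplp2 and Rpsa, and without Rpl10l. The rule found 88 genes among the 53927 symbols measured. All 88 matched a gene of GENCODE M21, in which 82 were protein-coding and 6 were pseudogenes (Rpl32l, Rpl6l, Rps12l1, Rps3a2, Rps3a3 and Rps4l). By role, 43 were large-subunit genes, 33 were small-subunit genes, 3 encoded proteins of the stalk of the large subunit and 9 were paralogs with an l in the symbol.

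There were 3 RNA-seq libraries in BRD0705/PD03 and 3 in 2i. Both media were N2B27, a defined serum-free mixture, with 1 µM PD0325901, which inhibits the kinase MEK. The BRD0705/PD03 medium also held 8 µM BRD0705, an inhibitor selective for the alpha form of the kinase GSK3, and the 2i medium held 3 µM CHIR99021, which inhibits both forms. All libraries are labelled wild type. The labels name the line E14, an established ESC line, whereas the growth protocol describes B6D2F1 ESCs that were derived and expanded on feeder cells in each medium, so the medium and the origin of the cells cannot be told apart. Total RNA was depleted of ribosomal RNA before library preparation. The question of the comparison is how cells kept with the selective inhibitor differ from cells kept in 2i.

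Ribosomal proteins fold onto ribosomal RNA in the nucleolus and cytoplasm to form the small and the large subunit, and cells make them in nearly equal numbers. Their mRNAs begin with a 5′ terminal oligopyrimidine (TOP) tract, through which the kinase mTORC1 and the RNA-binding protein LARP1 control their translation together. Being short and abundant, these mRNAs have been copied into the genome many times by retrotransposition, so most mammalian ribosomal protein genes have processed pseudogenes that differ from them by few bases. Many of the genes also carry small nucleolar RNAs (snoRNAs) in their introns.

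Values are CPM, estimated counts scaled to a common library total, and log2 fold changes are BRD0705/PD03 over 2i from edgeR's quasi-likelihood test, with p-values adjusted by Benjamini-Hochberg over all genes tested. A gene was called at an adjusted p under 0.05. The BRD0705/PD03 libraries held 27825601 to 40790837 counts, and the 2i libraries held 16968959 to 51180228. Across the genome 61.4% of the 20422 genes tested were called. All 8 ESC markers were detected in every library, 1 higher and 6 lower in BRD0705/PD03, and summed to 2692 to 2876 CPM in BRD0705/PD03 and 4674 to 4849 CPM in 2i, with Pou5f1 at 687 ± 6.29 CPM in BRD0705/PD03 and 765 ± 54.9 CPM in 2i (SD, n = 3 each). Of 22 fibroblast or feeder cell markers 19 were higher in BRD0705/PD03, and the other 3 were not called. The 22 summed to 1223 to 1780 CPM in BRD0705/PD03 and 648 to 676 CPM in 2i, none was at 0, and their part in the results below was not tested. Lists of 10 primitive endoderm and 8 trophoblast markers summed to 5.01 to 5.52 CPM and 51.8 to 53.7 CPM in BRD0705/PD03, against 3.95 to 4.62 CPM and 43.1 to 49.4 CPM in 2i, with Afp, Ttr and Hand1 listed at 0 in some libraries of both media. A set of 4 Y-linked genes summed to 308 to 329 CPM in BRD0705/PD03 and 9.496 to 11.01 CPM in 2i.

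Most ribosomal protein genes differed little between the media. Of the 88 genes 86 passed the filter on low counts, 22 of them were higher in BRD0705/PD03, 14 were lower and 50 were not called. Over all genes tested, 30.1% were higher and 31.4% were lower. The median log2 fold change of the 86 was 0.04, beside 0.00 over all genes tested, and 63 of the 86 lay within 0.25 of 0. In 35 of the 86 the libraries of the groups did not overlap, beside 66.0% of all genes tested. Against a fold of 1.2, 7 of the 86 were higher and 12 lower, beside 20.4% and 21.5% of all genes, 41.9% in either direction. The number of genes called higher was 43 without 2i replicate 2, and the number called lower was 27 without 2i replicate 3. Shares of all genes called in those 2 fits are not given here, so whether the shifts are particular to these genes was not tested.

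By role, 11 of the 43 large-subunit genes were higher and 8 lower (median log2 fold change 0.07). Of the 33 small-subunit genes 9 were higher and 4 lower (median 0.04). Over all genes tested, 30.1% were higher and 31.4% lower. The small-subunit genes include the processed pseudogenes Rps3a2 and Rps3a3, which were both higher. Larger single-gene changes occurred in both subunits. Most were of 3 kinds: genes on the X chromosome, the paralog Rpl39l, and autosomal genes whose counts moved against those of a near-identical copy. To describe the last kind, the copies of each gene were searched by sequence: a gene outside the rule counted as a copy where at least 50% of its stretches of 31 bases also occur in the protein-coding transcripts of the ribosomal protein gene. This gave 291 copies, belonging to 69 of the 88 genes, with up to 18 for one gene. A gene and its copies are called its family below, and 4 pseudogenes that the symbol rule includes joined a family in the same way (Rps3a2, Rps3a3, Rpl6l and Rps12l1). The family sums were added after the data had been seen.

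The 4 X-linked genes were all lower in BRD0705/PD03. They are Rpl10, Rpl36a, Rpl39 and Rps4x. Rpl10, whose protein joins the large subunit last and lies near the peptidyl transferase centre, had 84.8, 92.8 and 83.7 CPM in BRD0705/PD03 libraries, against 163, 179 and 156 CPM in 2i libraries. Rpl39, whose small protein lines the exit tunnel, had 319, 321 and 325 CPM in BRD0705/PD03 libraries, against 562, 615 and 524 CPM in 2i libraries. Every 2i library stood above every BRD0705/PD03 library for both genes. Rpl36a, whose protein lies at the E-site side of the large subunit, had 144, 149.5 and 156 CPM in BRD0705/PD03 libraries, against 248, 259 and 243 CPM in 2i libraries. Rps4x, of the small subunit, had 1420.2, 1468 and 1431 CPM in BRD0705/PD03 libraries, against 2418, 2527 and 2274 CPM in 2i libraries. For these genes too the groups did not overlap. The log2 fold changes of the 4 genes alone ran from -0.93 to -0.74.

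Summing the families left the X-linked genes as they were. The Rpl10 family averaged 1117 ± 23.1 CPM in BRD0705/PD03 and 2113 ± 145 CPM in 2i (SD, n = 3 each), a log2 fold change of -0.92 ± 0.05 (SE, adjusted p = 2.49e-12). The values for the other families were -0.81 ± 0.05 (SE, adjusted p = 1.57e-10) for Rpl39, -0.74 ± 0.05 (SE, adjusted p = 2.73e-11) for Rps4x and -0.73 ± 0.04 (SE, adjusted p = 3.69e-12) for Rpl36a. Autosomal copies of Rpl10 and Rpl36a were lower too. The share of family counts on Rpl36a averaged 40.4% in BRD0705/PD03 and 40.8% in 2i. Its copy Rpl36a-ps2 on chromosome 3, of which every 31-base stretch occurs in Rpl36a transcripts, averaged 221 CPM in BRD0705/PD03 and 362 CPM in 2i. The log2 fold change of Rpl36a-ps2 was -0.71 ± 0.04 (SE, adjusted p = 1.99e-11). Most counts of the Rpl10 family stood on Rpl10-ps3 on chromosome 9, annotated as protein-coding, which had 974, 991 and 947 CPM in BRD0705/PD03 libraries, against 1857, 1932 and 1692 CPM in 2i libraries. Its log2 fold change was -0.91 ± 0.05 (SE, adjusted p = 7.07e-12), close to that of Rpl10 alone, -0.93 ± 0.06 (SE, adjusted p = 1.16e-09). Its coding sequence is identical to that of Rpl10 over all 642 bases, so the estimated counts of the pair cannot be assigned to one locus from the coding sequence. A stretch of 75 coding bases (83 to 157, counted from the first base of the start codon) is shown for both loci because it carries no base that tells them apart. It lies in GRCm38 at chrX:74271800-74271874, plus strand, and at chr9:50344785-50344859, minus strand. Coding sequences here and below are those of GENCODE M21 transcripts, written 5′ to 3′ along the coding strand.
Rpl10: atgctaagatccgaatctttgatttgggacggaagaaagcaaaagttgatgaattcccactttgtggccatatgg
Rpl10-ps3: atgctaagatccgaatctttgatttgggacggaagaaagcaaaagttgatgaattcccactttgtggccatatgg

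The X-linked members had the same median log2 fold change as the X chromosome as a whole. Of 717 X-linked genes tested, 106 were higher and 473 lower (66.0%), with a median log2 fold change of -0.78. The median of the 4 members was also -0.78. The 4 families summed to 3258, 3350.2 and 3255 CPM in BRD0705/PD03 libraries, against 5803, 6083 and 5410 CPM in 2i libraries. Relative to the summed autosomal families this was 5.44 ± 0.04% in BRD0705/PD03 and 10.03 ± 0.12% in 2i (SD, n = 3 each). Families were sorted here by the chromosome of the ribosomal protein gene, whatever the position of its copies. The X-linked families thus included autosomal copies such as Rpl10-ps3. The autosomal families included the X-linked copies Rpl3-ps1 and Rps2-ps13, which were higher in BRD0705/PD03. Without copies, the 4 genes summed to 1968 to 2031 CPM in BRD0705/PD03 and 3198 to 3581 CPM in 2i. In bulk RNA, fewer cells of a type and less RNA per cell cannot be told apart, and the medium and the difference across the X and Y chromosomes cannot be told apart either.

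**Figure D1:**
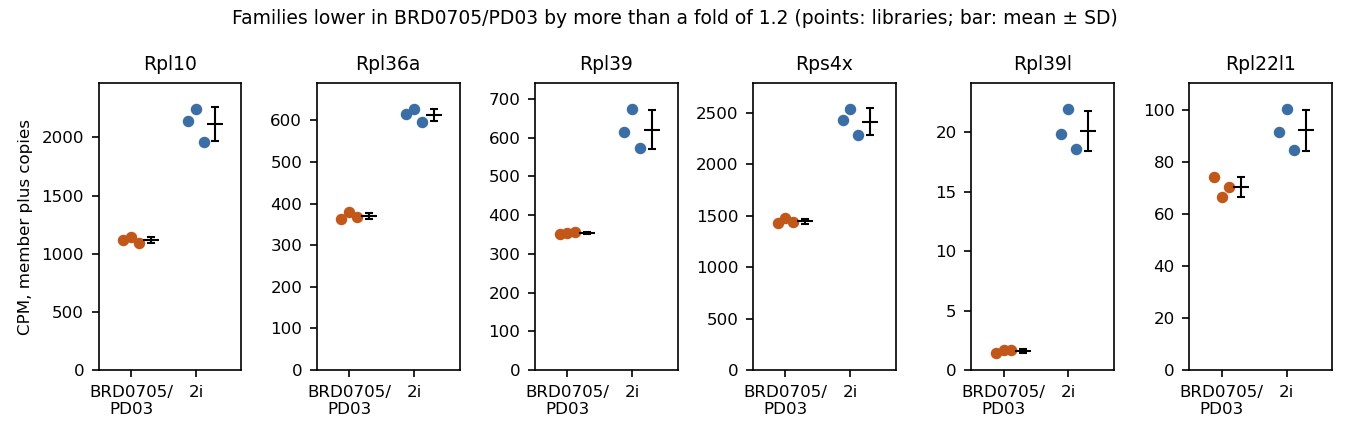
Summed CPM of a gene and its copies in each library (points) with mean ± SD (bars, n = 3 per group), BRD0705/PD03 left and 2i right, for the 6 families lower by more than a fold of 1.2. The Rpl10 family stood at 1094 to 1140 CPM in BRD0705/PD03 and 1956 to 2243 CPM in 2i, and in all 6 panels every BRD0705/PD03 library lay below every 2i library.

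Among the paralogs, Rpl39l had the most negative log2 fold change of the 86 genes. Rpl39l encodes a protein that can take the place of Rpl39 in the large subunit and is known in mouse mainly from male germ cells. It had 1.42, 1.67 and 1.67 CPM in BRD0705/PD03 libraries, against 19.8, 21.9 and 18.5 CPM in 2i libraries, with no overlap between the groups, a log2 fold change of -3.67 ± 0.11 (SE, adjusted p = 1.49e-15). Rpl39l has no copy by the 31-base rule and lies on chromosome 16. Its coding sequence differs from that of Rpl39 at 23 of 153 bases (85.0% identity), and both are shown because both genes were lower in BRD0705/PD03. Capitals mark the bases that differ. The coding bases lie within the whole genes, which span chr16:10170226-10174911 on the plus strand (Rpl39l) and chrX:37082520-37085402 on the minus strand (Rpl39) in GRCm38.
Rpl39l: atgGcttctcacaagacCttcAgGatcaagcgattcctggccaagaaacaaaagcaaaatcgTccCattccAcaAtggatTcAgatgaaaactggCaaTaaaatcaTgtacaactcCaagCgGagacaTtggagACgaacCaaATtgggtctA
Rpl39: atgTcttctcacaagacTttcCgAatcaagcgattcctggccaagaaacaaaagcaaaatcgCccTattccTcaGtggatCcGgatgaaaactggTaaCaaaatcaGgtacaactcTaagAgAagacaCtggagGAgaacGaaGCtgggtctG

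Rpl22l1, whose protein resembles Rpl22 and can replace it in the ribosome, was the other paralog that was lower. Rpl22l1 had 73.1, 65.6 and 69.8 CPM in BRD0705/PD03 libraries, against 89.97, 99.2 and 83.9 CPM in 2i libraries, a log2 fold change of -0.39 ± 0.06 (SE, adjusted p = 6.87e-05). The groups did not overlap. Rpl22 itself had 382, 382 and 375 CPM in BRD0705/PD03 libraries, against 367, 380.0 and 329 CPM in 2i libraries, with overlapping groups and a log2 fold change of 0.08 ± 0.05 (SE, adjusted p = 0.149). The coding sequences of the pair are 70.2% identical. Rps27l, a paralog of Rps27 induced by p53, had 140.4, 144 and 142 CPM in BRD0705/PD03 libraries, against 159, 173 and 134 CPM in 2i libraries and was not called (log2 fold change -0.13 ± 0.09 SE, adjusted p = 0.251), though without 2i replicate 3 it was lower (-0.22, adjusted p = 0.000166). Rpl7l1, related to Rpl7, had 238, 244 and 244 CPM in BRD0705/PD03 libraries, against 237, 246 and 224 CPM in 2i libraries and was not called either (log2 fold change 0.04 ± 0.04 SE, adjusted p = 0.472), though with upper-quartile factors it was higher (0.10, adjusted p = 0.0166). In both genes the groups overlapped.

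Rps4l, a transcribed pseudogene related to Rps4x on chromosome 6, was the only paralog that was higher. It had 264, 259 and 274 CPM in BRD0705/PD03 libraries, against 248, 256 and 217 CPM in 2i libraries, a log2 fold change of 0.15 ± 0.06 (SE, adjusted p = 0.0364), with no overlap. That call was lost in 8 of its 19 alternatives, with adjusted p = 0.0506 to 0.108 in those that changed the libraries or the genes. The remaining paralogs were close to the detection limit. Rpl3l, known from heart and skeletal muscle, had 0.37, 0.363 and 0.589 CPM in BRD0705/PD03 libraries, against 0.89, 0.539 and 0.395 CPM in 2i libraries. Rpl6l had 0.524, 0.654 and 0.441 CPM in BRD0705/PD03 libraries, against 0.119, 0.978 and 0.316 CPM in 2i libraries. Neither was called, and their groups overlapped. Rpl32l, at 0.123 to 0.254 CPM in BRD0705/PD03 and 0.119 to 0.299 CPM in 2i, did not pass the filter, nor did Rps12l1, which was listed at 0 in every library.

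Outside the X chromosome and the paralogs, the lowest values belonged to genes whose copies were higher. Rpl34, a large-subunit gene, had 68.7, 68.2 and 66.2 CPM in BRD0705/PD03 libraries, against 326, 356 and 293 CPM in 2i libraries, a log2 fold change of -2.27 ± 0.06 (SE, adjusted p = 3.04e-11). Its processed pseudogene Rpl34-ps1 on chromosome 6 had 303, 307 and 309 CPM in BRD0705/PD03 libraries, against 6.35, 10.8 and 7.696 CPM in 2i libraries. Each locus separated the groups, in opposite directions. Of the counts of the Rpl34 family, the share on Rpl34 averaged 18.1% in BRD0705/PD03 and 97.5% in 2i. The summed family had 372, 375 and 375 CPM in BRD0705/PD03 libraries, against 332, 367 and 301 CPM in 2i libraries, and its log2 fold change was 0.16 ± 0.06 (SE, adjusted p = 0.0307), so the gene was lower when counted alone and higher when counted with its copies. The coding sequences of the pair differ at 2 of 351 bases. The stretch of coding bases 66 to 140 is shown with its only difference in capitals, T132C from Rpl34 to the copy, to show how little the loci differ. The GRCm38 positions are chr3:130729076-130729150, minus strand, and chr6:71124675-71124749, plus strand.
Rpl34: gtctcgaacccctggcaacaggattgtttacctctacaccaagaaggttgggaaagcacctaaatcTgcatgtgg
Rpl34-ps1: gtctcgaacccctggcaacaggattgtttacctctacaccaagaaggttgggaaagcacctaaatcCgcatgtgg

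Rpl3, whose protein lies next to the peptidyl transferase centre, showed the same arrangement at higher abundance. Rpl3 had 431, 424 and 415 CPM in BRD0705/PD03 libraries, against 1132, 1197 and 1096 CPM in 2i libraries, a log2 fold change of -1.43 ± 0.04 (SE, adjusted p = 1.69e-15). Rpl3-ps1, a processed pseudogene on the X chromosome, had 1369.9, 1394 and 1389 CPM in BRD0705/PD03 libraries, against 675, 687 and 561 CPM in 2i libraries. While most X-linked genes were lower in BRD0705/PD03, this one was higher (log2 fold change 1.11 ± 0.07 SE, adjusted p = 2.17e-07). The share of family counts on Rpl3 averaged 23.4% in BRD0705/PD03 and 64.1% in 2i, and the family had 1802, 1819.6 and 1804 CPM in BRD0705/PD03 libraries, against 1808, 1886 and 1658 CPM in 2i libraries. The groups overlapped in the sum, whose log2 fold change was 0.02 ± 0.05 (SE, adjusted p = 0.74). The coding sequences differ at 2 of 1209 bases. Coding bases 4 to 78 hold C57A (Rpl3 to Rpl3-ps1), at chr15:80082508-80082582, minus strand, and chrX:13202575-13202649, plus strand.
Rpl3: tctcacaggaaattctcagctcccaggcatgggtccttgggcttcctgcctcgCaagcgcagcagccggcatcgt
Rpl3-ps1: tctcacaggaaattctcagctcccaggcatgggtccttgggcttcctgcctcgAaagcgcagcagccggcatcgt

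Rpl26, a large-subunit gene whose protein also binds p53 mRNA in human cells, had 428, 442 and 434 CPM in BRD0705/PD03 libraries, against 768, 799.6 and 699 CPM in 2i libraries, a log2 fold change of -0.80 ± 0.05 (SE, adjusted p = 3.47e-11). Its copy Gm15772 on chromosome 5 had 321, 313 and 331 CPM in BRD0705/PD03 libraries, against 19.9, 23.1 and 17.6 CPM in 2i libraries. Rpl26 was lower and Gm15772 higher in every BRD0705/PD03 library than in any 2i library. The share on Rpl26 averaged 57.4% in BRD0705/PD03 and 97.3% in 2i, and the family did not differ past the threshold (log2 fold change -0.04 ± 0.05 SE, adjusted p = 0.518). The coding sequences differ at 2 of 435 bases, one of them C177T within bases 169 to 243, at chr11:68903179-68903253, plus strand, and chr5:3236599-3236673, plus strand.
Rpl26: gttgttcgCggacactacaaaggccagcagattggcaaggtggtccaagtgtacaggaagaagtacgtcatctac
Gm15772: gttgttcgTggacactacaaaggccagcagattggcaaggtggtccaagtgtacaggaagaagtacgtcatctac

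A further 3 genes were lower alone and not called as families. Rps18, of the head of the small subunit, had 274, 277 and 254 CPM in BRD0705/PD03 libraries, against 485, 526 and 426 CPM in 2i libraries (log2 fold change -0.84 ± 0.08 SE, adjusted p = 1.64e-05). Its copies Gm10260, annotated as protein-coding, and Rps18-ps3 were both higher in BRD0705/PD03, and the family log2 fold change was -0.01 ± 0.07 (SE, adjusted p = 0.928). Rpl35a had 191, 191 and 183 CPM in BRD0705/PD03 libraries, against 305, 330.1 and 281 CPM in 2i libraries (log2 fold change -0.70 ± 0.05 SE, adjusted p = 5.63e-09), and its copy Rpl35a-ps2 had 194, 189 and 202 CPM in BRD0705/PD03 libraries, against 81.96, 83.6 and 69.1 CPM in 2i libraries. With its copies the Rpl35a family stood at -0.00 ± 0.05 (SE, adjusted p = 0.993). Rps2, of the mRNA entry side of the small subunit, had 938, 987 and 942 CPM in BRD0705/PD03 libraries, against 1302, 1331 and 1197 CPM in 2i libraries (log2 fold change -0.42 ± 0.05 SE, adjusted p = 2.18e-07). Its X-linked copy Rps2-ps13 had 566, 559 and 564 CPM in BRD0705/PD03 libraries, against 3.74, 3.03 and 2.92 CPM in 2i libraries. These are estimated counts, and the coding sequences of Rps2 and Rps2-ps13 differ at 7 of 879 bases. How the counts divide between the loci is therefore uncertain. The Rps2 family stood at 0.08 ± 0.05 (SE, adjusted p = 0.134).

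**Figure D2:**
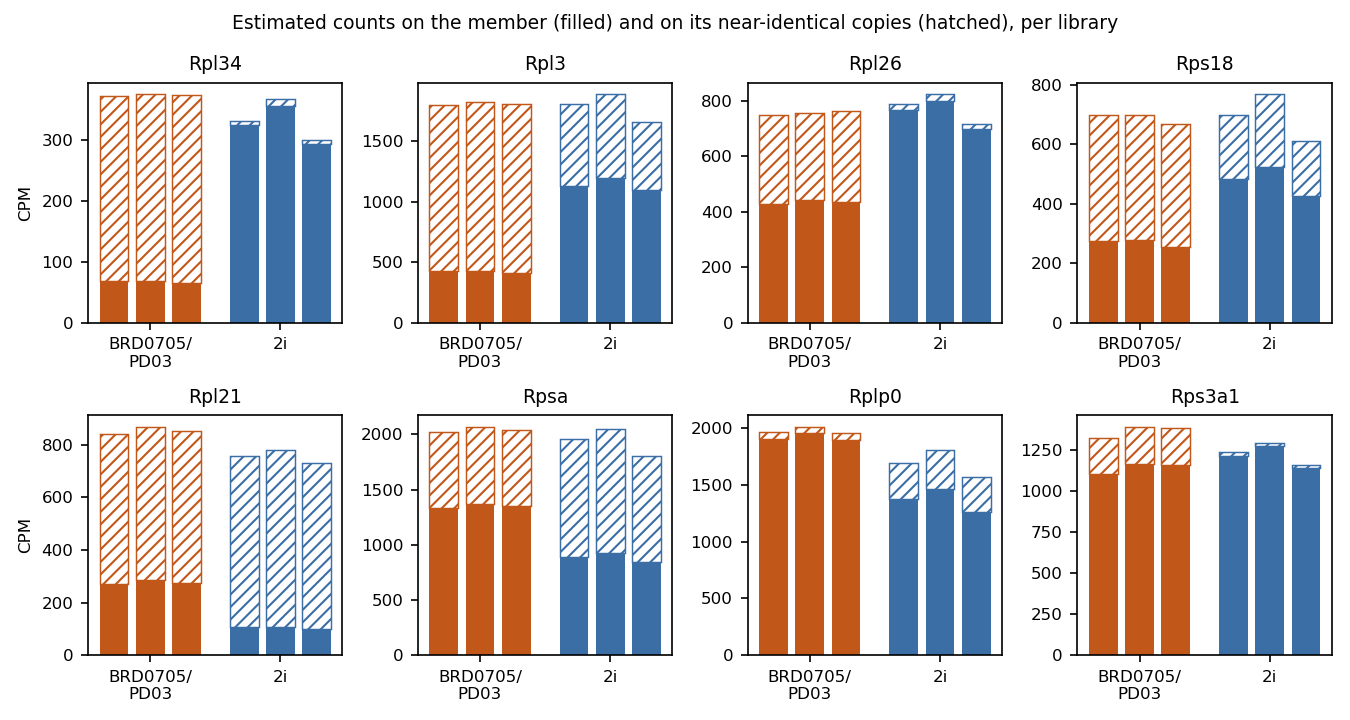
CPM on the ribosomal protein gene (filled) and on its near-identical copies (hatched) in each library, BRD0705/PD03 bars left and 2i bars right, for 8 families with a shift of over 10 percentage points. In the Rpl34 panel the filled part is 66.2 to 68.7 CPM in BRD0705/PD03 and 293 to 356 CPM in 2i, while the whole bars differ far less.

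Among the highest log2 fold changes were those of 2 copies that the symbol rule includes. Rps3a2, a processed pseudogene on chromosome 14, had 207, 216 and 206 CPM in BRD0705/PD03 libraries, against 14.7, 10.8 and 7.89 CPM in 2i libraries, a log2 fold change of 4.27 ± 0.19 (SE, adjusted p = 3.21e-05). Rps3a1, the protein-coding gene it resembles, which encodes a small-subunit protein near the mRNA exit, had 1103, 1160.1 and 1159 CPM in BRD0705/PD03 libraries, against 1211, 1272 and 1138 CPM in 2i libraries, with overlapping groups (log2 fold change -0.08 ± 0.05 SE, adjusted p = 0.133). Rps3a3, another copy, had 9.31, 11.3 and 13.4 CPM in BRD0705/PD03 libraries, against 5.16, 5.67 and 5.64 CPM in 2i libraries (log2 fold change 1.04 ± 0.12 SE, adjusted p = 1.87e-06). Summed, the Rps3a1 family was higher in BRD0705/PD03, 0.15 ± 0.05 (SE, adjusted p = 0.00724). The coding sequences of Rps3a1 and Rps3a2 differ at 4 of 792 bases, and bases 594 to 668 hold A645T and T668C (Rps3a1 to Rps3a2). They lie at chr3:86138488-86138562, minus strand, and chr14:88123141-88123215, minus strand.
Rps3a1: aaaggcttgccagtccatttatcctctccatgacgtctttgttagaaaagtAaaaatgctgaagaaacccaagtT
Rps3a2: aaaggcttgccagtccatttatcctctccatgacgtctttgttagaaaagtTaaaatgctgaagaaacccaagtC

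Rpl21, which has 18 copies, had 272, 286 and 275 CPM in BRD0705/PD03 libraries, against 107, 105 and 97.5 CPM in 2i libraries, a log2 fold change of 1.43 ± 0.04 (SE, adjusted p = 1.77e-15). The share of family counts on Rpl21 averaged 32.5% in BRD0705/PD03 and 13.6% in 2i, and the family log2 fold change was 0.18 ± 0.04 (SE, adjusted p = 0.000954). Rpsa, the small-subunit protein also known as the laminin receptor, had 1329, 1365 and 1356 CPM in BRD0705/PD03 libraries, against 885, 924 and 839.6 CPM in 2i libraries (log2 fold change 0.61 ± 0.04 SE, adjusted p = 4.6e-10). Its pseudogene Rpsa-ps10 on chromosome 3 moved the other way, with 691, 704 and 688 CPM in BRD0705/PD03 libraries, against 1071, 1129 and 969 CPM in 2i libraries, and the family was not called (log2 fold change 0.08 ± 0.05 SE, adjusted p = 0.176). In both genes every BRD0705/PD03 library stood above every 2i library when the gene was counted alone. Rps27, a small-subunit gene with few counts of its own, had 5.61, 5.45 and 5.101 CPM in BRD0705/PD03 libraries, against 2.85, 3.85 and 2.64 CPM in 2i libraries, with no overlap and a log2 fold change of 0.74 ± 0.15 (SE, adjusted p = 0.000209). The share on Rps27 averaged 1.16% in BRD0705/PD03 and 0.799% in 2i, the rest standing mainly on Rps27rt, annotated as protein-coding (log2 fold change 0.22 ± 0.08 SE, adjusted p = 0.0547), and on Gm17241 (log2 fold change 0.31 ± 0.09 SE, adjusted p = 0.0221). Neither was lower, and the Rps27 family was higher too, 0.26 ± 0.08 (SE, adjusted p = 0.0272). Rps27 averaged under 5 CPM, and it and its copies were singled out after their values were seen.

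The stalk recruits translation factors to the large subunit, with Rplp0 as its base and pairs of Rplp1 and Rplp2 along it. Rplp0 had 1908, 1953 and 1901 CPM in BRD0705/PD03 libraries, against 1375, 1462 and 1263 CPM in 2i libraries, a log2 fold change of 0.49 ± 0.05 (SE, adjusted p = 6.96e-08). Its processed pseudogene Gm8730 on chromosome 8 had 51.95, 51.9 and 50.4 CPM in BRD0705/PD03 libraries, against 315, 338 and 299 CPM in 2i libraries. Summed, the family was higher in BRD0705/PD03 with no overlap, by 0.23 ± 0.05 (SE, adjusted p = 0.000475). Rplp1 had 913, 905 and 892 CPM in BRD0705/PD03 libraries, against 983, 1037 and 894 CPM in 2i libraries (log2 fold change -0.11 ± 0.05 SE, adjusted p = 0.0697), and Rplp2 had 459, 455 and 479.9 CPM in BRD0705/PD03 libraries, against 468, 473 and 428 CPM in 2i libraries (log2 fold change 0.03 ± 0.04 SE, adjusted p = 0.623). For both the groups overlapped and neither was called. Rplp1 was lower without 2i replicate 3 (-0.15, adjusted p = 0.00155) and without sex-chromosome genes (-0.12, adjusted p = 0.0483), and Rplp2 was higher with upper-quartile factors (0.09, adjusted p = 0.0423). The coding sequences of Rplp0 and Gm8730 differ at 12 of 951 bases, of which A390G, A393G and A447T (Rplp0 to Gm8730) lie in the stretch of bases 373 to 447, at chr5:115561153-115561227, plus strand, and chr8:102865352-102865426, minus strand.
Rplp0: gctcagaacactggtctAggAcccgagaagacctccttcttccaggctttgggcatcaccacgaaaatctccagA
Gm8730: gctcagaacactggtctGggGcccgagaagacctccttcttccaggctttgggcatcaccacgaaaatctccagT

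Of the 8 called genes averaging 5 CPM or more with the highest log2 fold changes, Rpl23a and Rpl13a changed with few counts on copies. Rpl23a, whose protein sits at the tunnel exit, had 1086, 1085 and 1065 CPM in BRD0705/PD03 libraries, against 883, 899 and 838 CPM in 2i libraries. Alone its log2 fold change was 0.30 ± 0.04 (SE, adjusted p = 3.18e-06), and as a family 0.30 ± 0.04 (SE, adjusted p = 4.08e-06). Rpl13a, known also in human monocytes for silencing of inflammatory mRNAs, had 1124, 1097 and 1079 CPM in BRD0705/PD03 libraries, against 920.3, 983 and 804 CPM in 2i libraries. Alone its log2 fold change was 0.28 ± 0.06 (SE, adjusted p = 0.00175), and as a family 0.28 ± 0.06 (SE, adjusted p = 0.00151). Both genes separated the groups, and neither passed a test against a fold of 1.2 (adjusted p = 0.123 for Rpl23a and 0.297 for Rpl13a, edgeR's glmTreat).

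In some families single copies differed widely beside a small difference in the ribosomal protein gene. Rpl15 had 670.0, 692 and 673 CPM in BRD0705/PD03 libraries, against 726, 785 and 683 CPM in 2i libraries and was not called (log2 fold change -0.11 ± 0.05 SE, adjusted p = 0.0532). Its copy Rpl15-ps3, of which every 31-base stretch occurs in Rpl15 transcripts, was listed at 0 in each BRD0705/PD03 library and at 199, 193 and 161 CPM in 2i libraries. Another copy, Gm10020, had 199, 204 and 181 CPM in BRD0705/PD03 libraries, against 10.03, 13.3 and 15.3 CPM in 2i libraries. The Rpl15 family stood at -0.08 ± 0.05 (SE, adjusted p = 0.14). Rps28 alone had 214, 219 and 218 CPM in BRD0705/PD03 libraries, against 229, 251 and 218 CPM in 2i libraries and was not called (log2 fold change -0.10 ± 0.05 SE, adjusted p = 0.0755). Its copy Gm10263 had 57.4, 61.8 and 63.3 CPM in BRD0705/PD03 libraries, against 0.0593, 0.16 and 0.355 CPM in 2i libraries, and the other copy that passed the filter, Gm10443, was not called (log2 fold change 0.06 ± 0.04 SE, adjusted p = 0.248). The Rps28 family was higher in BRD0705/PD03, 0.17 ± 0.04 (SE, adjusted p = 0.00185). These genes and copies were singled out after their values were seen. Of the 291 copies 177 passed the filter, 26 of them higher and 28 lower in BRD0705/PD03, beside 30.1% higher and 31.4% lower over all genes tested.

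With copies summed, the ribosomal protein genes formed 84 families, of which 83 passed the filter. In BRD0705/PD03 22 families were higher, 8 were lower and 53 were not called, beside 30.3% higher and 31.6% lower, 61.9% in all, over the 20242 genes and families tested in that fit. The median log2 fold change was 0.06, and 72 of the 83 families lay within 0.25 of 0, compared with 63 of the 86 genes counted alone. Changes over 0.5 in either direction were found in 16 genes alone and in 5 families. Of the genes counted alone, 18 were higher and 8 lower both ways, Rpl34 changed direction, 3 were called higher only as families, and 7 lost their call. Among the 8 lower families, Rpl31 at -0.11 ± 0.04 (SE, adjusted p = 0.0219) and Rps29 at -0.10 ± 0.04 (SE, adjusted p = 0.0476) had small differences.

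Against a fold of 1.2, edgeR's glmTreat called 0 families higher and 6 lower, beside 20.6% and 21.6% of all genes, 42.1% in either direction. At an unadjusted p under 0.05 the counts were also 0 and 6. The 6 were the X-linked Rpl10, Rpl36a, Rpl39 and Rps4x and the paralogs Rpl39l and Rpl22l1, and all but Rpl22l1 also passed against a fold of 1.5, which 25.1% of all genes did. The 73 autosomal families that are no paralogs had log2 fold changes between -0.31 (Rps16, not called) and 0.30 (Rpl23a), with a median of 0.07. With no fold threshold, 21 of these 73 families were higher and 2 lower, beside 30.3% higher and 31.6% lower over all genes and families tested. DESeq2, with no fold threshold, called 22 of the 84 families higher and 7 lower. The share of all genes that DESeq2 called is not given here. The number of families called higher was 47 without 2i replicate 2 and 12 without BRD0705/PD03 replicate 2, and 20 families were lower without 2i replicate 3. The shares of all genes called in these fits are not given here, so whether the shifts are particular to these families was not tested.

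**Figure D3:**
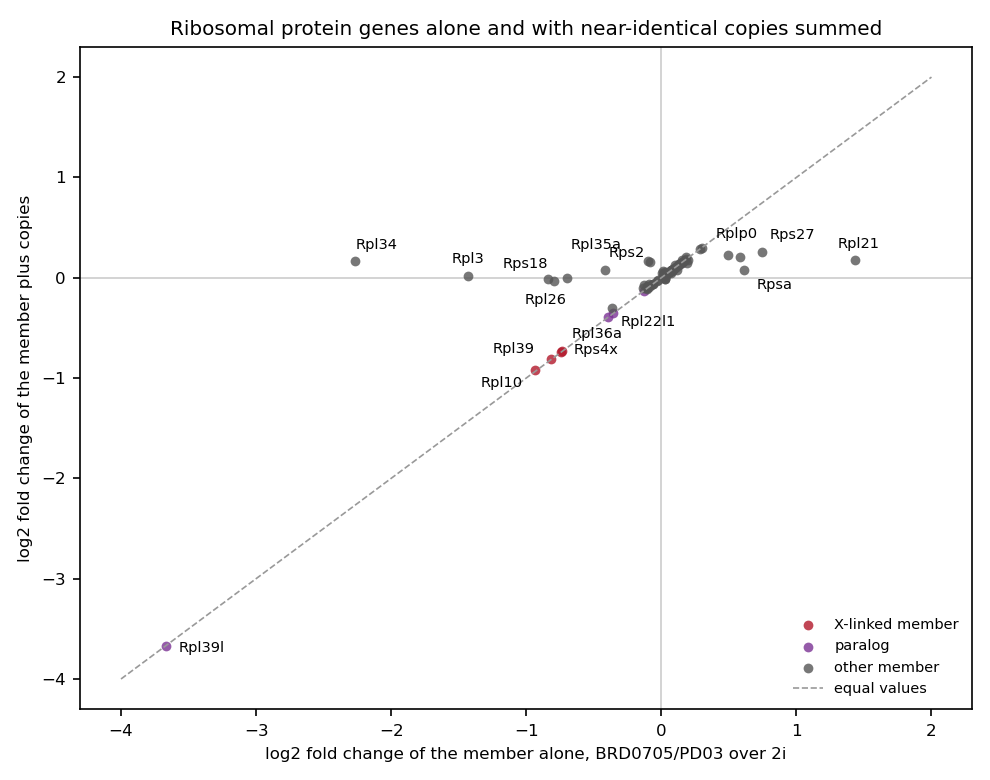
Log2 fold change (BRD0705/PD03 over 2i) of each ribosomal protein gene counted alone (x axis) and with its near-identical copies summed (y axis), with the dashed line marking equal values. Rpl34, Rpl3 and Rpl21 stand far from 0 on the x axis (-2.27, -1.43 and 1.43) and near 0 on the y axis (0.16, 0.02 and 0.18), while the X-linked genes and Rpl39l lie on the line.

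The total level of these mRNAs was similar in both media. The 88 genes held 4.70%, 4.66% and 4.62% of all counts in BRD0705/PD03 libraries, against 4.70%, 4.88% and 4.41% in 2i libraries. The means were 4.66 ± 0.04% in BRD0705/PD03 and 4.66 ± 0.236% in 2i (SD, n = 3 each), and the 2i libraries spanned the whole range of the BRD0705/PD03 libraries. With copies the share was 6.34% to 6.46% in BRD0705/PD03 and 5.93% to 6.59% in 2i. Families of autosomal ribosomal protein genes, with their X-linked copies included, summed to 60088 to 61061 CPM in BRD0705/PD03 and 53178 to 61232 CPM in 2i. Copies held 26.9% to 27.2% of family counts in BRD0705/PD03 and 25.7% to 26.0% in 2i, without overlap.

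The ratio of summed small-subunit to large-subunit CPM was 0.722 ± 0.004 in BRD0705/PD03 and 0.734 ± 0.003 in 2i (SD, n = 3 each), a difference of -0.0120. The difference was 0.0139 without the X-linked genes and -0.0032 with copies summed, so its sign depended on which genes were counted. Mitochondrial transcripts held a lower share of counts in BRD0705/PD03, 0.960% to 1.01%, than in 2i, 1.17% to 1.19%, without overlap. Their part in the sums was not tested.

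**Figure D4:**
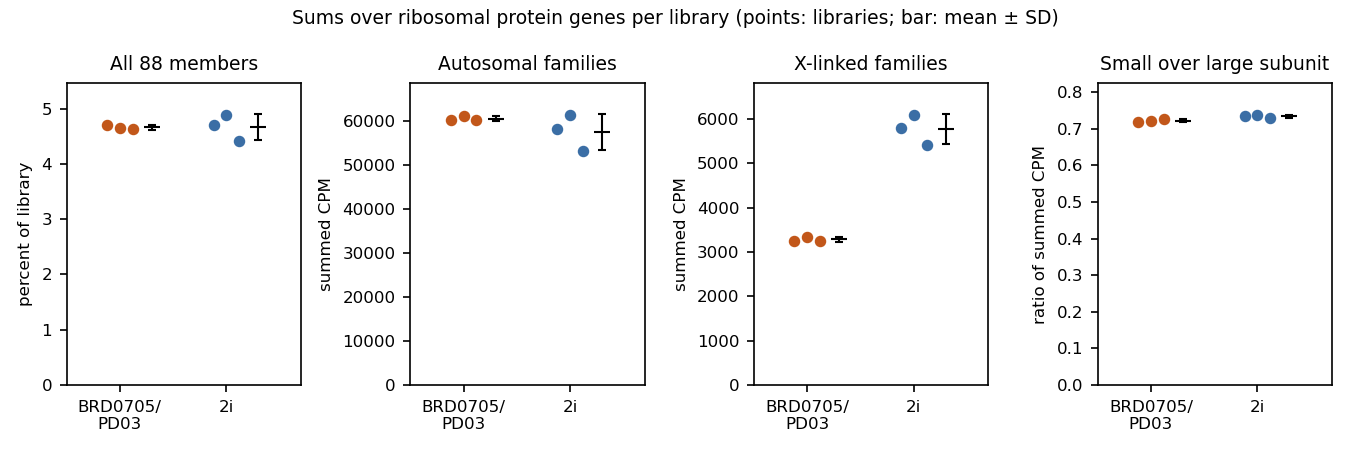
Per-library sums over the ribosomal protein genes (points) with mean ± SD (bars, n = 3 per group), BRD0705/PD03 left and 2i right: percent of library counts on the 88 genes, summed CPM of autosomal and of X-linked families, and the ratio of small to large subunit CPM. X-linked families stood at 3255 to 3350.2 CPM in BRD0705/PD03 and 5410 to 6083 CPM in 2i, and the percent of counts on all 88 genes overlapped between the media. Families are sorted by the chromosome of the ribosomal protein gene, whatever the position of its copies.

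Members were also split by whether they hold a snoRNA. Of 30 protein-coding members that hold an annotated snoRNA gene on the same strand, 13 were higher and 4 lower (median log2 fold change 0.08), beside 30.1% and 31.4% of all genes tested. Of the 52 protein-coding members without one, 6 were higher and 10 lower (median 0.03). With copies summed the counts were 12 higher and 2 lower of the 30, and 9 higher and 6 lower of the 52, with medians of 0.08 and 0.04, beside 30.3% and 31.6% in that fit. Rpl13a holds 4 snoRNA genes, and Rpl23a holds 3. The difference between these sets was not tested.

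Ribosomal protein genes examined whose symbols fall outside the rule did not pass the threshold. Fau, which encodes small-subunit protein S30 fused to a ubiquitin-like domain, had 304, 313 and 304 CPM in BRD0705/PD03 libraries, against 319, 327 and 281 CPM in 2i libraries. Rack1, a scaffold protein on the head of the small subunit, had 1571, 1647 and 1579 CPM in BRD0705/PD03 libraries, against 1644, 1690.3 and 1539 CPM in 2i libraries. Rpl36al, an autosomal paralog of the X-linked Rpl36a, had 149.9, 153 and 149 CPM in BRD0705/PD03 libraries, against 156, 158 and 143 CPM in 2i libraries, a log2 fold change of -0.02 ± 0.04 (SE, adjusted p = 0.732) beside -0.74 for Rpl36a. In these genes the groups overlapped, edgeR called 0 of them, none had an unadjusted p under 0.05, and DESeq2 also called 0.

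Other genes whose mRNAs begin with a TOP tract also had a median close to 0. Of 14 such genes of the translation machinery 4 were higher and 2 lower in BRD0705/PD03 (median log2 fold change -0.01), beside 30.1% and 31.4% of all genes tested. Without 2i replicate 2 only 1 was lower, and without 2i replicate 3 5 were. The higher ones were the initiation factor genes Eif4b (log2 fold change 0.34 ± 0.04 SE, adjusted p = 6.64e-07) and Eif3h (0.29), Tpt1 (0.31) and the elongation factor gene Eef1b2 (0.22). Eif3f (-0.26) and Pabpc1, the poly(A)-binding protein (-0.13), were lower. Eef1a1, the elongation factor gene, averaged 10046 ± 130.4 CPM in BRD0705/PD03 and 10822 ± 454 CPM in 2i (SD, n = 3 each) and was not called.

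Of 77 ribosome biogenesis genes 29 were higher and 22 lower, with a median log2 fold change of 0.01. Together these calls came near the share over all genes tested, 30.1% higher and 31.4% lower, 61.4% in all. Taf1d, a subunit of the RNA polymerase I initiation factor SL1, averaged 981 ± 42.6 CPM in BRD0705/PD03 and 535 ± 17.3 CPM in 2i (SD, n = 3 each), a log2 fold change of 0.87 ± 0.04 (SE, adjusted p = 2.86e-12). Nhp2 of the box H/ACA snoRNPs (0.42), Rpf1 (0.43) and the 18S rRNA methyltransferase gene Emg1 (0.43) were also higher. Las1l, an endonuclease subunit that cuts the second internal spacer of pre-rRNA, averaged 60.2 ± 2.24 CPM in BRD0705/PD03 and 129 ± 1.67 CPM in 2i, a log2 fold change of -1.09 ± 0.04 (SE, adjusted p = 6.86e-14). Gnl3l (-0.61), the exonuclease gene Xrn2 (-0.59) and Utp14a (-0.54) were also lower. All 4 X-linked genes of the list, Dkc1, Utp14a, Gnl3l and Las1l, were lower, as were the 4 X-linked ribosomal protein genes, beside 66.0% of the 717 X-linked genes tested. Of the X-linked genes in the lists below, Tsr2 was lower, Rragb was higher and Hcfc1 was not called.

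Of 22 genes for ribosome assembly chaperones, nuclear transport and late maturation, 8 were higher and 5 lower (median log2 fold change 0.08), also near the 61.4% of all genes called. The importin gene Ipo5 (log2 fold change 0.43 ± 0.04 SE, adjusted p = 2.03e-08), Bccip, a chaperone of Rpl23 (0.28), Rrp36 (0.32) and the subunit anti-association factor Eif6 (0.24) were higher. The lowest was the X-linked Tsr2, the chaperone of Rps26, at 37.96 ± 1.28 CPM in BRD0705/PD03 and 96.8 ± 3.504 CPM in 2i (SD, n = 3 each), a log2 fold change of -1.35 ± 0.05 (SE, adjusted p = 1.3e-14). Rps26 itself had 485, 502 and 490.3 CPM in BRD0705/PD03 libraries, against 466, 492 and 435 CPM in 2i libraries and was not called, with overlapping groups. Riok3 (-0.56), Ltv1 (-0.25) and Efl1 (-0.30) were lower.

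Among 28 genes of mTORC1 signalling and of the control of TOP mRNAs, 14 were higher and 8 lower (median log2 fold change 0.07), beside 30.1% and 31.4% of all genes tested. The number lower was 5 without BRD0705/PD03 replicate 3, 2i replicate 1 or 2i replicate 2. The Rag GTPase genes Rragb on the X chromosome (log2 fold change 1.52 ± 0.06 SE, adjusted p = 1.26e-13) and Rragd (log2 fold change 1.33 ± 0.05 SE, adjusted p = 2.9e-13), which carry amino acid signals to mTORC1, were higher, as were the S6 kinase gene Rps6kb1 (0.57) and Tia1 (0.60), whose protein binds TOP mRNAs under stress. Sesn1, an inhibitor of mTORC1, averaged 10.6 ± 0.456 CPM in BRD0705/PD03 and 31.5 ± 0.571 CPM in 2i (SD, n = 3 each), a log2 fold change of -1.57 ± 0.06 (SE, adjusted p = 1.51e-13). Ddit4 (-0.32), Mlst8 (-0.25) and the cap-binding factor gene Eif4e (-0.16) were lower. These are mRNA levels, and no measure of mTORC1 activity or of translation was analysed here.

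Of 15 genes for transcription factors that bind ribosomal protein promoters, 5 were higher and 4 lower (median log2 fold change 0.05), again near the 61.4% of all genes called. Mycn averaged 201 ± 6.301 CPM in BRD0705/PD03 and 110.4 ± 5.999 CPM in 2i (SD, n = 3 each), a log2 fold change of 0.86 ± 0.04 (SE, adjusted p = 5.03e-12). Elf1 (0.83), Myc (0.71) and Zbtb7a (0.35) were also higher. Mycl averaged 12.7 ± 0.445 CPM in BRD0705/PD03 and 29.9 ± 0.914 CPM in 2i, a log2 fold change of -1.23 ± 0.06 (SE, adjusted p = 4.43e-12). The subunits of the GA-binding protein, Gabpa (-0.17), Gabpb1 (-0.14) and Gabpb2 (-0.17), were lower by less than 0.2. 

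**Figure D5:**
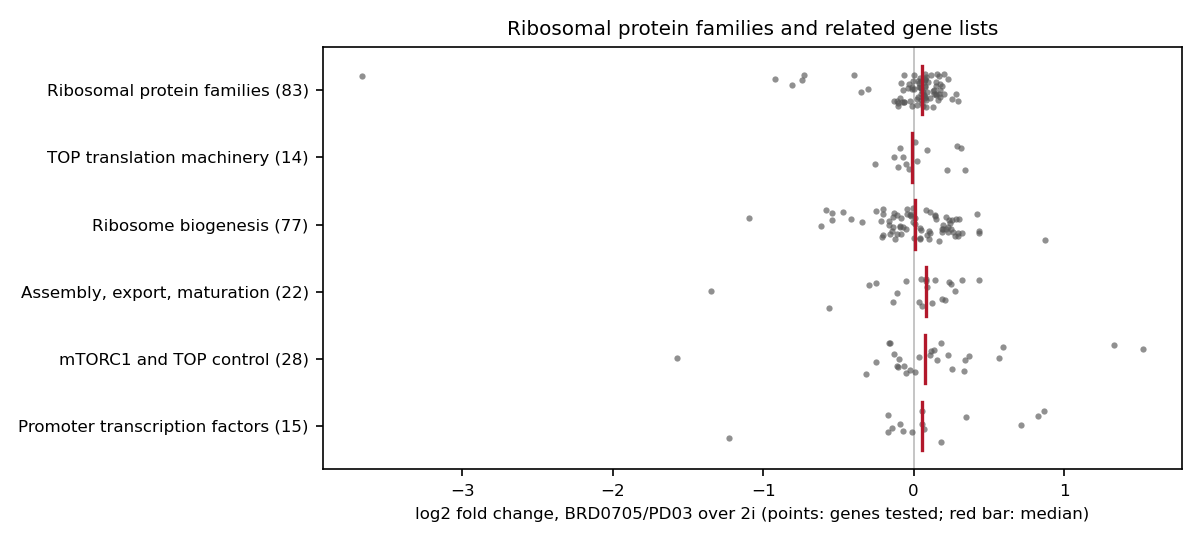
Log2 fold change (BRD0705/PD03 over 2i, x axis) of the 83 ribosomal protein families tested and of the genes tested in 5 related lists (rows, number of genes in brackets), with points for genes and red bars for medians. The medians lie between -0.01 and 0.08. Of the 83 ribosomal protein families 72 lie within 0.25 of 0, and Rpl39l at -3.67 and the X-linked genes are the lowest.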

How the data were processed

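The authors deposited, for each of 6 libraries, a whole number per gene symbol. Per the submitters' processing notes the tools included Salmon, with no version, and the genome was mm10, so the deposited values were treated as estimated counts that had been rounded. The annotation and the strand option the authors used were not given in the sources used here. Salmon divides reads that fit several loci between them by estimation, so values of genes with near-identical copies are uncertain one by one. Antisense and overlapping genes may also share reads.

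Counts were fitted with edgeR 4.0.16 in R 4.3.3 (two-sided quasi-likelihood tests, TMM factors, filterByExpr, robust dispersions, medium as the sole term; common BCV 0.0591). P-values were adjusted over 20422 genes, with a threshold of 0.05. The standard error is the log2 fold change divided by the root of F. Replicate numbers come from the titles, and no label describes separate cultures, so p-values reflect only the scatter among these libraries, possibly technical. Chi-square per degree of freedom between libraries of one medium was 2.77 to 9.84. Roles, chromosomes, snoRNAs and sequences came from GENCODE M21 (GRCm38), looked up by symbol, which gave 1 gene for 51951 symbols, more than 1 for 104 and no gene for 1872. Copies were counted over genes that do not overlap the ribosomal protein gene, with Python 3.11 scripts, and pairs were aligned with Biopython. The 9 pairs aligned were chosen after their values were seen.

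The ribosomal protein genes, the lists and the naming rule were chosen with earlier results of these data known. The rule names any ribosomal protein gene, with library values for the 8 most positive and 8 most negative log2 fold changes of called genes averaging 5 CPM or more, for X-linked, stalk and paralog genes, and for 4 genes outside the symbol rule. Some genes it covers are not reported here. Of related lists it names the 4 with the smallest p in each direction. Alternatives were DESeq2 1.42.0, other factors and filters, folds of 1.2 and 1.5, pseudogenes summed or left out, no sex-chromosome genes, the replicate number as a block and each library left out. Only the main edgeR fit was tested on simulated data, made as counts per gene. The copy search, the family sums, the tests against a fold, DESeq2 and the division of reads between loci were not simulated.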

Additional observations from a re-analysis of the deposited data

How the results depend on the processing

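The log2 fold changes of Rpl10, Rpl36a, Rpl39, Rps4x and Rpl39l kept direction and call under every alternative run. Summing copies turned Rpl34 to 0.17 (named pseudogenes), 0.16 (copies sharing 50% of 31-base stretches) and 0.17 (20%), and Rpl3 to 0.02 each time. Genes higher numbered 39 with upper-quartile factors, 7 against a fold of 1.2, 3 against 1.5, and 16 to 43 with 1 library left out. Genes lower numbered 8 with copies summed at either share and 12 to 27 with 1 library left out. The median of the genes was 0.104 with upper-quartile factors, 0.059 without a filter, 0.062 with at least 1 CPM, 0.057 and 0.059 with copies summed at 50% and 20%, and -0.006 to 0.113 with 1 library left out. Families higher numbered 42 with upper-quartile factors, 0 against either fold, and 12 to 47 with 1 library left out. Families lower numbered 5 without sex-chromosome genes, 5 against a fold of 1.5, and 6 to 20 with 1 library left out. For fits with 1 library left out or with other factors, the share of all genes called is not given here. The family median was 0.125 with upper-quartile factors (which moved the median of all genes to 0.07), 0.079 without a filter, and 0.009 to 0.125 with 1 library left out. The small-to-large ratio differed by -0.0018 with named pseudogenes summed, -0.0197 over protein-coding genes, 0.0139 without X-linked genes and -0.0032 with copies summed. With upper-quartile factors 6 TOP genes (4 in the report), 15 assembly genes (8) and 8 promoter factor genes (5) were higher, 12 assembly genes were higher with a filter of 1 CPM and over protein-coding genes, and the 8 mTORC1 genes that were lower became 4 with upper-quartile factors or no filter and 5 with DESeq2 or its size factors. Signs turned in genes that were not called: Rpl6l to 0.09 (DESeq2) and 0.24 (block), with -0.40 to 1.19 when 1 library was left out; Rplp2 to -0.01 to 0.07; Fau to 0.06 (upper quartile) and 0.01 (no filter, 1 CPM, protein-coding), with -0.07 to 0.05; Rack1 to 0.04 and 0.00 (1 CPM), with -0.05 to 0.02; and Rpl36al to 0.05 and 0.00 (no filter, 1 CPM), with -0.05 to 0.03. The causes of these changes, also of those seen with copies summed, were not tested. Same-numbered libraries deviated with correlations of -0.00822, 0.034 and -0.0357, so the numbers were not taken as pairs; with the replicate block 23 genes were higher and 16 lower (median 0.04), and 24 families higher and 7 lower (median 0.06). Depth was lowest in 2i replicate 1, and Rpl32l, Rpl3l, Rpl6l and Rps12l1 had too few counts for a comparison.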
